A study of Mus musculus with 18 samples.

Results

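Integrins and laminins are 2 gene families of cell adhesion, and every gene whose symbol names an integrin alpha subunit, an integrin beta subunit from Itgb1 to Itgb8, or a laminin alpha, beta or gamma chain was taken from an RNA-seq table of mouse heart. The rule used symbols alone and found 37 of 30072 genes: 7 integrin subunits whose best known carriers are leukocytes, 19 integrin subunits that mainly bind the extracellular matrix, and 11 laminin chains. Of the 37 genes, 36 reached at least 0.23 CPM (counts scaled to library size) in at least 6 mice, as did 15054 genes of the whole table. The 37th gene, Lama1, the laminin alpha1 chain of embryonic basement membranes, had at most 5 counts in any mouse and was not tested.

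The study asked how a single 25 Gy dose to the heart changes cardiac gene expression. RNA came from 18 CD-1 mice of both sexes, at least 8 weeks old. Per the methods of the study, controls came from the same litters and were matched for age and sex. The control group (n = 6) had isoflurane anesthesia and CT imaging but no radiation treatment. The other mice had the same anesthesia and imaging and were then irradiated. Their tissue was taken 2 weeks (n = 6) or 6 weeks (n = 6) later. The labels name the interventricular septum and gamma rays, where the methods of the study name ventricular tissue and an X-ray source. The labels describe a mixed genetic background and give no collection time for the controls, so a difference in age at collection and an effect of irradiation cannot be told apart.

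Integrins are heterodimers of 1 alpha and 1 beta subunit that cross the plasma membrane and tie the cytoskeleton to ligands outside the cell. Leukocyte integrins, most of them built on beta2 or beta7, let white blood cells hold to endothelium and to each other, whereas integrins built on beta1, beta3, beta4, beta5, beta6 and beta8 hold cells to collagen, laminin, fibronectin and other matrix proteins. Laminins are cross-shaped trimers of an alpha, a beta and a gamma chain that form the sheet of the basement membrane around cardiomyocytes, capillaries and nerves, and the dimer alpha7 beta1 is the main laminin receptor of adult heart muscle.

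The deposited estimated counts summed to between 11522987 and 15501019 per mouse, so that 3 counts corresponded to 0.194 to 0.26 CPM by library size alone. Factors from TMM (trimmed mean of M-values), which scale the mice to each other, were 0.844 to 0.991 in controls, 0.962 to 1.03 at 2 weeks and 1.04 to 1.13 at 6 weeks, and scaling by library size alone moved the median gene's log2 fold change from -0.02 to 0.24 at 6 weeks and from -0.0015 to 0.15 at 2 weeks. Fold changes below are relative to that median gene unless another scale is named. Cardiomyocyte markers (Myh6, Myl2 and 4 others) summed to between 23130 and 43232 CPM, as in heart muscle, whereas the atrial marker Myl7 ranged from 0.0734 to 290 CPM among the 2-week mice alone. Control mouse 4 stood apart from the other controls with 73.8 summed CPM of 5 leukocyte markers and 2019 summed CPM of 5 fibroblast markers, where the other 5 controls had at most 39.0 and 1050 CPM. Counts of members and of the lists of related genes are therefore also given without this mouse. The same was done for counts of cell type markers at 6 weeks that moved by more than 1.5 times.

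Irradiated hearts had more RNA of leukocyte integrins, of a few matrix-binding integrins and of the chains of laminin alpha4 beta1 gamma1, and most of these differences were found at 6 weeks (tests by edgeR's quasi-likelihood method, Benjamini-Hochberg adjusted over all genes, called at an adjusted p under 0.05). At 2 weeks, 2 of 36 genes were higher than in controls, Lama4 and Itgam, against 3.09% of all genes tested that were higher. None was lower, against 1.93% of all genes, and 11 of 36 had an unadjusted p under 0.05, against 20.4% of all genes. DESeq2 called 7 of the 36 higher and 1 lower at 2 weeks, but the share of all genes that it called is not given here. At 6 weeks, 15 of 36 genes were higher than in controls, against 13.5% of all genes, and 8 of these passed a log2 fold change of 1, against 5.27% of all genes. Lama2 and Lamb3 were lower at 6 weeks, 2 of 36 against 11.5% of all genes, and 19 of 36 had an unadjusted p under 0.05, against 36.2%. The median log2 fold change over the 36 genes was 0.14 at 2 weeks and 0.32 at 6 weeks, beside -0.0015 and -0.02 over all genes. Both times were compared with the same 6 controls. Without control mouse 4, 4 genes were higher and 1 was lower at 2 weeks, and 16 were higher and 2 lower at 6 weeks.

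**Figure D1:**
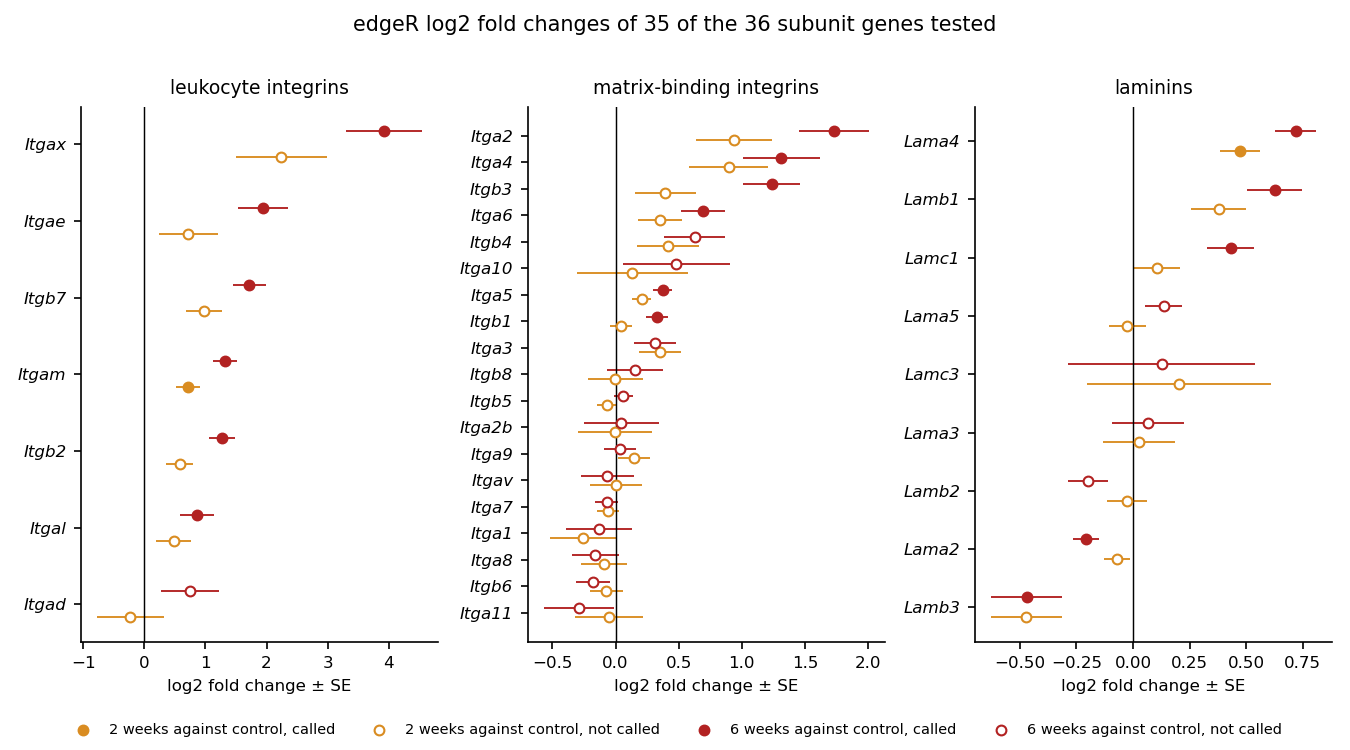
Log2 fold changes with their SE for 35 of the 36 subunit genes tested, at 2 weeks (orange) and 6 weeks (red) against controls, in panels for leukocyte integrins, matrix-binding integrins and laminins with separate horizontal scales. Filled points have an adjusted p under 0.05; they number 2 at 2 weeks and 17 at 6 weeks, and the longest shift is that of Itgax with 3.92 at 6 weeks.

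Leukocyte integrins made up the group with the largest shifts. At 6 weeks 6 of 7 were higher than in controls, 5 of them past a log2 fold change of 1, and the median of the 7 was 1.32. Over all genes 13.5% were higher and 5.27% passed that fold. In 4 of the 7 every mouse at 6 weeks lay above every control, against 5.8% of all genes. At 2 weeks only Itgam passed the test, 1 of 7 against 3.09% of all genes, and the median was 0.71. When control mouse 4 was left out, 2 of 7 were higher at 2 weeks and 6 of 7 at 6 weeks. Itgal, Itgam, Itgax and Itgad are neighbours on chromosome 7 (GRCm38, chr7:127296260-128223816), and the other members of the group lie on chromosomes 10, 11 and 15.

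Itgam encodes alphaM (CD11b), the subunit of complement receptor 3 on macrophages, monocytes and neutrophils. Its level was 4.35 to 13.7 CPM in controls (median 7.04), 10.4 to 13.8 CPM at 2 weeks (median 13.4) and 17.1 to 23.7 CPM at 6 weeks (median 18.9). Only control mouse 4, at 13.7 CPM, reached the range of the 2-week mice, and the 6-week mice lay above all others. Against controls, the log2 fold change was 0.71 ± 0.20 (SE) at 2 weeks (adjusted p = 0.0417) and 1.32 ± 0.19 at 6 weeks (adjusted p = 8.14e-05). Without control mouse 4 it was 0.97 at 2 weeks (adjusted p = 0.00157) and 1.58 at 6 weeks. The call at 2 weeks was lost, with an adjusted p between 0.0501 and 0.0922, when control mouse 1, 2, 3, 5 or 6, 2-week mouse 2, 3, 4, 5 or 6, or 6-week mouse 3 was left out. In the GENCODE annotation Itgam shares 3450 of its 5024 exonic bases with another gene on the same strand, Gm49368, and how the annotation used by the authors divided those reads is not known here.

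Itgb2 encodes beta2 (CD18), the partner of alphaM, alphaX, alphaL and alphaD. It ranged from 3.98 to 12.1 CPM in controls (median 5.94), from 7.12 to 13.3 CPM at 2 weeks (median 10.5) and from 12.8 to 24.2 CPM at 6 weeks (median 16.3). The 6-week mice again lay above every control, while the 2-week range covered the upper controls. Relative to controls the log2 fold change was 0.58 ± 0.22 at 2 weeks (adjusted p = 0.136) and 1.27 ± 0.22 at 6 weeks (adjusted p = 0.000314). Without control mouse 4 the difference at 2 weeks was 0.82 and passed the test (adjusted p = 0.0204).

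Itgax encodes alphaX (CD11c), a subunit known from dendritic cells and some macrophages, and showed the largest fold change of the 36 genes tested. Controls had 0 to 8 counts (0 to 0.555 CPM, median 0.368), 2-week mice 9 to 41 counts (0.66 to 2.85 CPM, median 1.42) and 6-week mice 27 to 177 counts (1.87 to 13.3 CPM, median 3.63). All irradiated mice were above all controls at both times, but the highest 6-week mouse, mouse 6, had more than any other by far, with the next at 5.47 CPM. In edgeR's test the log2 fold change was 2.24 ± 0.75 at 2 weeks (adjusted p = 0.089) and 3.92 ± 0.62 at 6 weeks (adjusted p = 0.000162). It was 3.36 at 6 weeks without mouse 6 (adjusted p = 0.000115), and, with so few counts in controls, its size depends on how counts near 0 are treated: on the log2(TPM + 1) scale the difference was 1.18.

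Itgb7 encodes beta7, which pairs with alpha4 or alphaE on lymphocytes and some myeloid cells. It rose from 0.37 to 1.11 CPM in controls (median 0.7) to 1.37 to 3.39 CPM at 6 weeks (median 2.62), with 1.05 to 2.05 CPM at 2 weeks (median 1.35). No 6-week mouse overlapped with controls. At 6 weeks the log2 fold change was 1.72 ± 0.28 (adjusted p = 0.000195), and that at 2 weeks, 0.98 ± 0.30, did not pass (adjusted p = 0.0657). Its partner Itgae encodes alphaE (CD103), found on resident T cells and a subset of dendritic cells. Itgae was at 0 to 0.976 CPM in controls (median 0.254), 0.321 to 0.806 CPM at 2 weeks (median 0.542) and 0.885 to 1.85 CPM at 6 weeks (median 1.17). The groups touched at 6 weeks through a single control, mouse 1, whose 0.976 CPM came from 15 counts. Its log2 fold change at 6 weeks was 1.95 ± 0.41 (adjusted p = 0.00187).

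Itgal encodes alphaL (CD11a), the subunit of LFA-1 on most leukocytes, and had the smallest difference among the leukocyte integrins that passed. It stood at 1.36 to 2.67 CPM in controls (median 1.54), 0.963 to 3.52 CPM at 2 weeks (median 2.27) and 2.03 to 4.67 CPM at 6 weeks (median 3.26). The ranges overlapped at both times. Itgal differed from controls by a log2 fold change of 0.87 ± 0.28 at 6 weeks (adjusted p = 0.0278), and the call was lost, with an adjusted p between 0.0502 and 0.0735, when control mouse 1, 2, 3 or 5 or 6-week mouse 2, 3 or 6 was left out. Itgad, the alphaD subunit, had at most 7 counts in any mouse and a log2 fold change of 0.75 ± 0.47 at 6 weeks (adjusted p = 0.266). Its exons also overlap, on the opposite strand, with the abundant muscle gene Cox6a2 over 70 bases.

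**Figure D2:**
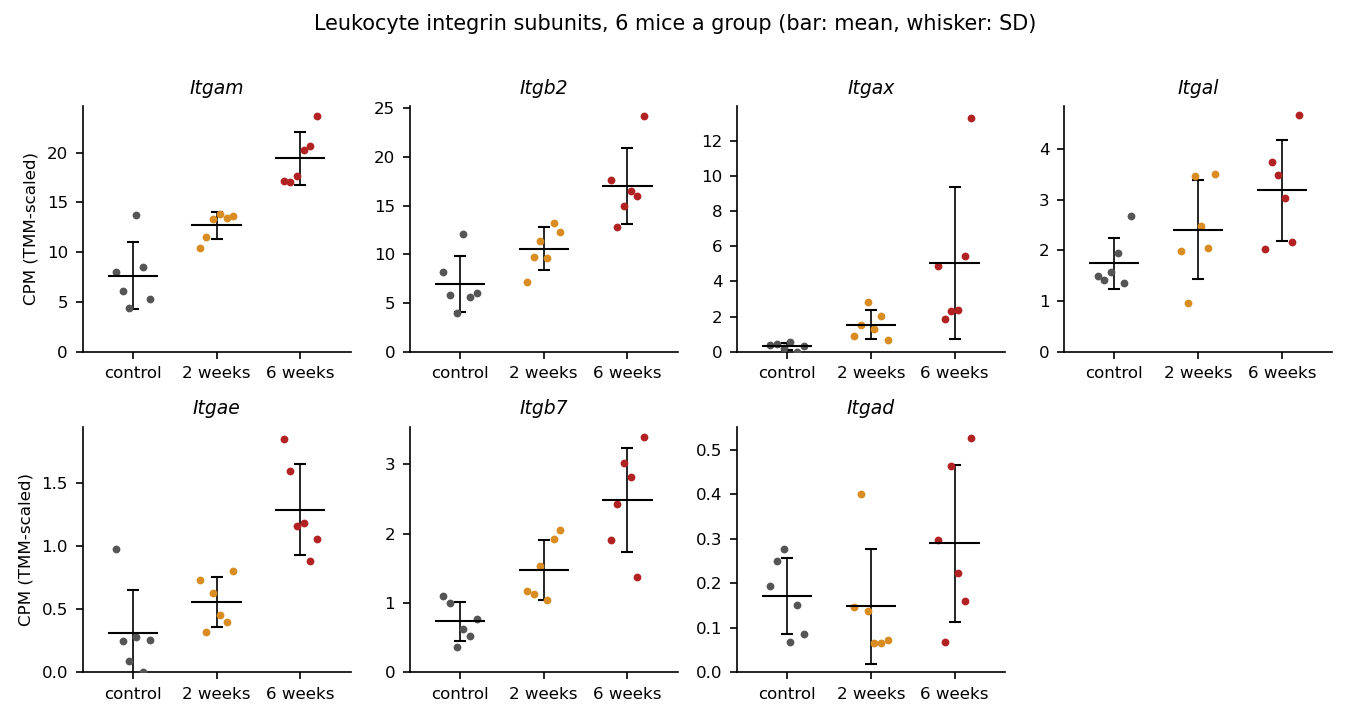
CPM of the 7 leukocyte integrin subunits in each mouse (points), with the mean (bar) and SD (whisker) of 6 mice a group and a linear axis from 0 in each panel. For Itgam, Itgb2, Itgax and Itgb7 the 6-week mice lie above all controls, and the Itgax mean at 6 weeks is pulled up by 1 mouse at 13.3 CPM.

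Markers of white blood cells moved with these genes. All 5 general leukocyte markers (Ptprc, Coro1a, Cd53, Laptm5, Cd52) were higher at 6 weeks, when 13.5% of all genes tested were. Their summed level was 19.0 to 73.8 CPM in controls (median 38.2), 61.0 to 79.8 CPM at 2 weeks (median 66.2) and 89.3 to 151 CPM at 6 weeks (median 115), and each irradiated group differed from controls (exact permutation test, two-sided, p = 0.013 early and 0.00217 late, the latter being the smallest possible, or 0.0322 and 0.0112 after adjustment over 57 tests). At 2 weeks 1 of 7 macrophage markers was higher, against 3.09% of all genes, and 5 of 7 without control mouse 4. Of the macrophage markers 6 of 7 were higher at 6 weeks, with a summed level of 160 to 481 CPM in controls and 410 to 556 CPM at 6 weeks. Of the monocyte markers 3 of 3 were higher, with a sum of 2.00 to 8.53 CPM in controls and 14.6 to 20.8 CPM at 6 weeks, and of the dendritic cell markers 3 of 5, with a sum of 4.57 to 5.97 CPM and 6.73 to 12.3 CPM. Neutrophil, T cell and B cell genes were scarce. At 6 weeks 1 of 2 tested neutrophil markers, 2 of 4 T and NK cell markers and 2 of 3 B cell markers were higher, and their lists summed to 1.87 to 5.19, 3.86 to 5.58 and 1.13 to 2.48 CPM, against 0.185 to 3.47, 0.833 to 2.08 and 0.431 to 0.716 CPM in controls. Ly6g was at 0 in all controls and at most 0.0802 CPM elsewhere, S100a8 stayed at or below 0.322 CPM, Cd3d at or below 0.527 CPM and Ms4a1 at or below 0.597 CPM. In bulk tissue fewer or more cells of a type and less or more RNA per cell cannot be told apart, and the part of these cell types in the integrin differences was not tested.

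Because leukocyte integrins moved together, the 250 bases before the start site were searched for GAGGAA, the core motif of the myeloid transcription factor PU.1, on both strands (TTCCTC when read on the other strand). RefSeq start sites on GRCm38.p6 gave a window for 3 of the 7 leukocyte integrins and for 23 of all 37 genes. The windows are printed 5′ to 3′ on the strand of the gene, Itgam at chr7:128062390-128062639, Itgax at chr7:128129300-128129549 (both on the plus strand) and Itgb7 at chr15:102231936-102232185 (minus strand), with matches in capitals.
Itgam: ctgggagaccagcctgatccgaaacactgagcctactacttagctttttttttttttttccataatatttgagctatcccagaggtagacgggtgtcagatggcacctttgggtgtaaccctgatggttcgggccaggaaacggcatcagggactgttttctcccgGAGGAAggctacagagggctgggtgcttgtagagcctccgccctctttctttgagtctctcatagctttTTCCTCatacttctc
Itgax: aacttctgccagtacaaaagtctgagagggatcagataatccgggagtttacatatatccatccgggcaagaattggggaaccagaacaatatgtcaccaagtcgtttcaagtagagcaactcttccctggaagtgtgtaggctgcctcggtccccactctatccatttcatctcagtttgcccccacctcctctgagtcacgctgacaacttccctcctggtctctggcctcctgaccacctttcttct
Itgb7: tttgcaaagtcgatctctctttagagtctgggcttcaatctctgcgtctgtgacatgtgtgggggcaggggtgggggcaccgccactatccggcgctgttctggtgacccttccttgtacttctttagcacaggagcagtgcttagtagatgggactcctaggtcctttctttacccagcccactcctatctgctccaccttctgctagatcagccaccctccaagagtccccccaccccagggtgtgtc
The Itgam window held 1 match on each strand, and the other two held none. The 23 genes with a window had 26 windows between them, of which 13 held a match, and of 32851 windows of all genes in the reference 23.3% held one. Of the 13 windows with a match, only that of Itgam belonged to a leukocyte integrin. The others belonged to matrix-binding integrins and laminins, and no test was made.

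Matrix-binding integrins split into a few subunits that were higher at 6 weeks and a majority that did not pass. At 6 weeks 6 of 19 were higher, against 13.5% of all genes, and none was lower, against 11.5%, in the edgeR test. DESeq2 called 7 higher and none lower, with no share of all genes to set beside it. An unadjusted p under 0.05 was found for 7 of 19, about the share over all genes (36.2%). Of the 6 called by edgeR, 3 passed a log2 fold change of 1, against 5.27% of all genes. The median over the 19 genes was 0.15 at 6 weeks and 0.04 at 2 weeks. At 2 weeks none passed in edgeR's test, 4 of 19 had an unadjusted p under 0.05, again about the share over all genes (20.4%), and DESeq2 called Itga2 and Itga4. Leaving out control mouse 4 gave 1 higher at 2 weeks and 7 at 6 weeks. In 4 of the 19 the 6-week mice lay above all controls, against 5.8% of all genes.

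Itgb1 encodes beta1, the common partner of most matrix-binding alpha subunits and, per length, the most abundant integrin subunit of this tissue. Its level was 293 to 428 CPM in controls (median 330), 318 to 390 CPM at 2 weeks (median 337) and 370 to 486 CPM at 6 weeks (median 421). Control mouse 4, at 428 CPM, was the only control inside the 6-week range, the next control being at 332 CPM. The log2 fold change was 0.04 ± 0.09 at 2 weeks (adjusted p = 0.832) and 0.33 ± 0.09 at 6 weeks (adjusted p = 0.0104), and without control mouse 4 it was 0.41 at 6 weeks (adjusted p = 0.000695).

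Of the collagen-binding subunits, Itga2 rose, whereas Itga1, its neighbour on chromosome 13, did not pass. Itga2 encodes alpha2, the collagen receptor of platelets and epithelial cells. It was low in controls, at 0.529 to 1.5 CPM (median 0.928), and reached 1.24 to 2.79 CPM at 2 weeks (median 1.87) and 2.15 to 4.67 CPM at 6 weeks (median 3.37). Every 6-week mouse exceeded every control, with counts of 29 to 58 against 7 to 23. Compared with controls, Itga2 had a log2 fold change of 0.94 ± 0.30 at 2 weeks (adjusted p = 0.0798) and 1.73 ± 0.28 at 6 weeks (adjusted p = 0.000202). Itga1, the alpha1 subunit of smooth muscle and capillaries, was much higher in level, at 32.3 to 87.6 CPM in controls and 29.8 to 81.4 CPM at 6 weeks, with a log2 fold change of -0.13 (95% interval -0.69 to 0.43). Itga10 and Itga11, collagen receptors of cartilage and of fibroblasts, had log2 fold changes of 0.48 ± 0.42 and -0.29 ± 0.28 at 6 weeks (adjusted p = 0.446 and 0.49).

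Among the laminin-binding subunits only Itga6 passed the test. Itga6 encodes alpha6, a laminin receptor of endothelium and, with beta4, of hemidesmosomes. Controls had 40.3 to 85.7 CPM (median 68.2), 2-week mice 58.5 to 109 CPM (median 85.9) and 6-week mice 85.8 to 131 CPM (median 103). The lowest 6-week mouse stood barely above the highest control. At 6 weeks the log2 fold change was 0.69 ± 0.18 (adjusted p = 0.00695), and on the log2(TPM + 1) scale it was 0.42 and did not pass (adjusted p = 0.059). Itga7 encodes alpha7, the laminin receptor of muscle fibers. It was nearly level, at 163 to 229 CPM in controls (median 190), 164 to 204 CPM at 2 weeks (median 190) and 146 to 215 CPM at 6 weeks (median 187). Its log2 fold change at 6 weeks was -0.07, with a 95% interval of -0.26 to 0.12. On the log2(TPM + 1) scale, which is not TMM-scaled, Itga7 was higher by 0.31 and passed the test. Itga3, an alpha subunit of epithelium and vessels, had a log2 fold change of 0.31 ± 0.17 (adjusted p = 0.19). Itgb4, the beta subunit of hemidesmosomes, had one of 0.63 ± 0.24 (adjusted p = 0.0643) and passed without control mouse 4 (0.73, adjusted p = 0.0438).

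Of the 8 subunits that bind the RGD motif of fibronectin, vitronectin and related ligands, or that platelets carry, Itga5 and Itgb3 rose at 6 weeks. Itga5 encodes alpha5, the classical fibronectin receptor. Its spread between mice was small, with 63.6 to 74.2 CPM in controls (median 69.2), 73.2 to 88.3 CPM at 2 weeks (median 80.8) and 76.9 to 105 CPM at 6 weeks (median 86.5). Although all 6-week mice were above all controls, the difference was modest, at 0.37 ± 0.08 on the log2 scale (adjusted p = 0.00155). Itgb3 encodes beta3, which pairs with alphaV on endothelium and macrophages and with alphaIIb on platelets. It stood at 2.04 to 2.93 CPM in controls (median 2.64), 2.49 to 4.24 CPM at 2 weeks (median 3.37) and 3.26 to 9.78 CPM at 6 weeks (median 5.81). The 6-week mice were above all controls but were widely spread among themselves. Its log2 fold change was 0.39 ± 0.24 at 2 weeks (adjusted p = 0.385) and 1.24 ± 0.23 at 6 weeks (adjusted p = 0.000655).

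The partners of beta3 did not pass the test. Itgav, which encodes alphaV, had 30.1 to 69.5 CPM in controls and 34.2 to 63.1 CPM at 6 weeks, with a log2 fold change of -0.06 (95% interval -0.51 to 0.38). Itga2b, which encodes the platelet subunit alphaIIb, had 0.278 to 1.8 CPM in controls and 0.885 to 1.56 CPM at 6 weeks, with a log2 fold change of 0.05 (95% interval -0.59 to 0.68). Platelet markers summed to 9.16 to 16.2 CPM in controls and 10.8 to 18.2 CPM at 6 weeks (exact permutation test, two-sided, p = 0.678). None of the 4 tested platelet markers was called by edgeR on the TMM scale or by DESeq2 (0 had an unadjusted p under 0.05). By limma on the log2(TPM + 1) scale, which moves the median gene by 0.29, 1 of the 4 was higher. Gp6 and Gp9 stayed at or below 0.262 CPM. The other members of this group were Itgb5, Itgb6, Itgb8 and Itga8, beta and alpha subunits of alphaV and beta1 dimers on muscle, epithelium, glia and mesenchyme. Their log2 fold changes at 6 weeks ran from -0.18 for Itgb6 to 0.15 for Itgb8, with adjusted p values of at least 0.359.

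Itga4 encodes alpha4, the receptor of VCAM-1 and fibronectin on leukocytes. It ranged from 2.04 to 8.05 CPM in controls (median 4.78), from 7.78 to 11.5 CPM at 2 weeks (median 8.45) and from 5.07 to 20.8 CPM at 6 weeks (median 12). The 2-week mice lay closer together than the 6-week mice, of which mice 4 and 5, at 6.23 and 5.07 CPM, fell within the control range. The log2 fold change was 0.90 ± 0.31 at 2 weeks (adjusted p = 0.104) and 1.31 ± 0.31 at 6 weeks (adjusted p = 0.00383). Without control mouse 4 it was 1.13 at 2 weeks and passed the test (adjusted p = 0.0432). Counted with the leukocyte integrins, Itga4 made 7 of 8 of that group higher at 6 weeks. Itga9, the related alpha9 subunit of smooth muscle and endothelium, had 59.5 to 107 CPM in controls and 75.9 to 114 CPM at 6 weeks, with a log2 fold change of 0.04 ± 0.12.

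**Figure D3:**
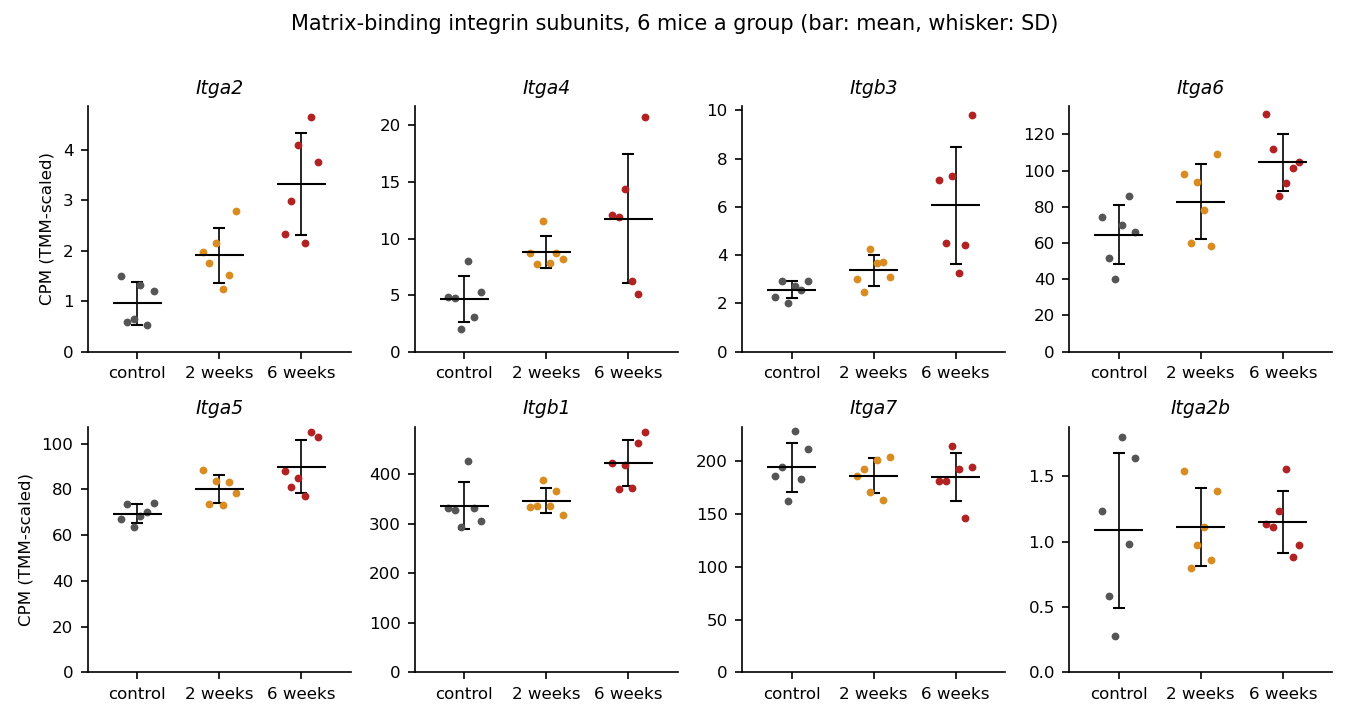
CPM of 8 matrix-binding integrin subunits in each mouse (points), with the mean (bar) and SD (whisker) of 6 mice a group and a linear axis from 0 in each panel. The upper row and Itga5 and Itgb1 rose at 6 weeks, whereas Itga7 and Itga2b lie at about the same level in all groups.

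Laminin chains had small fold changes. At 6 weeks 3 of 10 tested chains were higher, against 13.5% of all genes, and 2 were lower on the TMM scale, close to the 11.5% of all genes. Their median log2 fold change was 0.11, and none passed a log2 fold change of 1 in either direction. The 3 higher chains, alpha4, beta1 and gamma1, are those of laminin-411, the trimer of capillary and smooth muscle basement membranes. The same counts held without control mouse 4, where 1 chain was also lower at 2 weeks. With all mice Lama4 passed alone at 2 weeks, and Lama4 and Lamb1 were 2 of 10 whose 2-week mice lay above all controls, against 1.96% of all genes.

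Lama4 encodes the alpha4 chain, and its level was 131 to 166 CPM in controls (median 149), 183 to 217 CPM at 2 weeks (median 205) and 196 to 303 CPM at 6 weeks (median 240). Neither irradiated group overlapped with controls, and control mouse 4, at 152 CPM, did not stand out. Lama4 had a log2 fold change of 0.47 ± 0.09 at 2 weeks (adjusted p = 0.00544) and 0.72 ± 0.09 at 6 weeks (adjusted p = 1.69e-05). Both calls were kept in all 14 alternative analyses and when any of the 18 mice was left out. Lamb1 encodes beta1, and was at 135 to 175 CPM in controls (median 143), 177 to 222 CPM at 2 weeks (median 189) and 166 to 299 CPM at 6 weeks (median 228). The 2-week mice were all above the controls by a small margin, while 6-week mouse 5, at 166 CPM, was not. The log2 fold change was 0.38 ± 0.12 at 2 weeks (adjusted p = 0.0794) and 0.63 ± 0.12 at 6 weeks (adjusted p = 0.000958). Lamc1 encodes gamma1, the gamma chain of nearly all laminins, and had 264 to 400 CPM in controls (median 332), 322 to 459 CPM at 2 weeks (median 342) and 387 to 514 CPM at 6 weeks (median 447). The control and 6-week ranges overlapped only through control mouse 4, at 400 CPM. Lamc1 rose at 6 weeks by 0.43 ± 0.10 (adjusted p = 0.00444), and its difference at 2 weeks was 0.11 ± 0.10 (adjusted p = 0.602).

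Lama2 and Lamb3 were lower at 6 weeks on the TMM scale, and both calls depended on the scaling. Lama2 encodes alpha2, the chain of laminin-211 around cardiomyocytes, whose loss causes a muscular dystrophy. Its level was 235 to 295 CPM in controls (median 285), 250 to 288 CPM at 2 weeks (median 257) and 231 to 250 CPM at 6 weeks (median 240). Of the controls, mouse 3, at 235 CPM, lay within the 6-week range. The log2 fold change was -0.21 ± 0.06 (adjusted p = 0.0132), but it was 0.06 with library size alone (adjusted p = 0.545) and 0.22 on the log2(TPM + 1) scale (adjusted p = 0.0435), so that the direction depended on the scale. Lamb3 encodes beta3, a chain of epithelial laminin-332, and was at 9.85 to 18 CPM in controls (median 13), 8.62 to 10.9 CPM at 2 weeks (median 9.81) and 7.6 to 13.2 CPM at 6 weeks (median 8.88). Ranges overlapped at both times. Its log2 fold change of -0.47 ± 0.16 at 6 weeks (adjusted p = 0.0341) was -0.20 with library size alone and did not pass (adjusted p = 0.31). The call was also lost, with an adjusted p between 0.0541 and 0.0937, when control mouse 1, 3 or 6 or 6-week mouse 1, 3, 5 or 6 was left out. On the TMM scale cardiomyocyte markers moved the same way, and 5 of 6 were lower at 6 weeks, against 11.5% of all genes. Their sum was 25504 to 43232 CPM in controls and 23130 to 30768 CPM at 6 weeks (exact permutation test, two-sided, p = 0.0108, adjusted p = 0.028). None of the 6 was called by edgeR with library size alone (median log2 fold change -0.18, with 1 unadjusted p under 0.05) or by limma on the TPM scales (median -0.05, with 0 such p). Their summed level was 22031 to 34371 TPM in controls (median 30784) and 26601 to 29641 TPM at 6 weeks (median 28426), with overlapping ranges. Their part in the Lama2 difference was not tested.

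The remaining chains did not pass on the TMM scale. Lamb2, the beta2 chain of heart muscle and vessels, had 620 to 798 CPM in controls (median 694) and 520 to 777 CPM at 6 weeks (median 592), with a log2 fold change of -0.20 (95% interval -0.39 to -0.01, adjusted p = 0.11). Lama5, the alpha5 chain of mature endothelium, had 181 to 231 CPM in controls and 202 to 236 CPM at 6 weeks, with a log2 fold change of 0.14 ± 0.08 (adjusted p = 0.25). Its call depended on the scaling. In edgeR's test with library size alone Lama5 was higher by 0.40 (adjusted p = 0.00161). By limma on the log2(TPM + 1) scale it was higher by 0.50 (adjusted p = 0.000542). These scales move the median gene by 0.24 and 0.29. Lama3 had a log2 fold change of 0.07 ± 0.16 at 6 weeks (adjusted p = 0.807), and one of 0.27 by limma on the log2(TPM + 1) scale (adjusted p = 0.0427). Lamc3 varied widely between mice, from 0.925 to 3.45 CPM in controls and from 1.16 to 3.96 CPM at 6 weeks, with a log2 fold change of 0.13 ± 0.41 (adjusted p = 0.864).

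**Figure D4:**
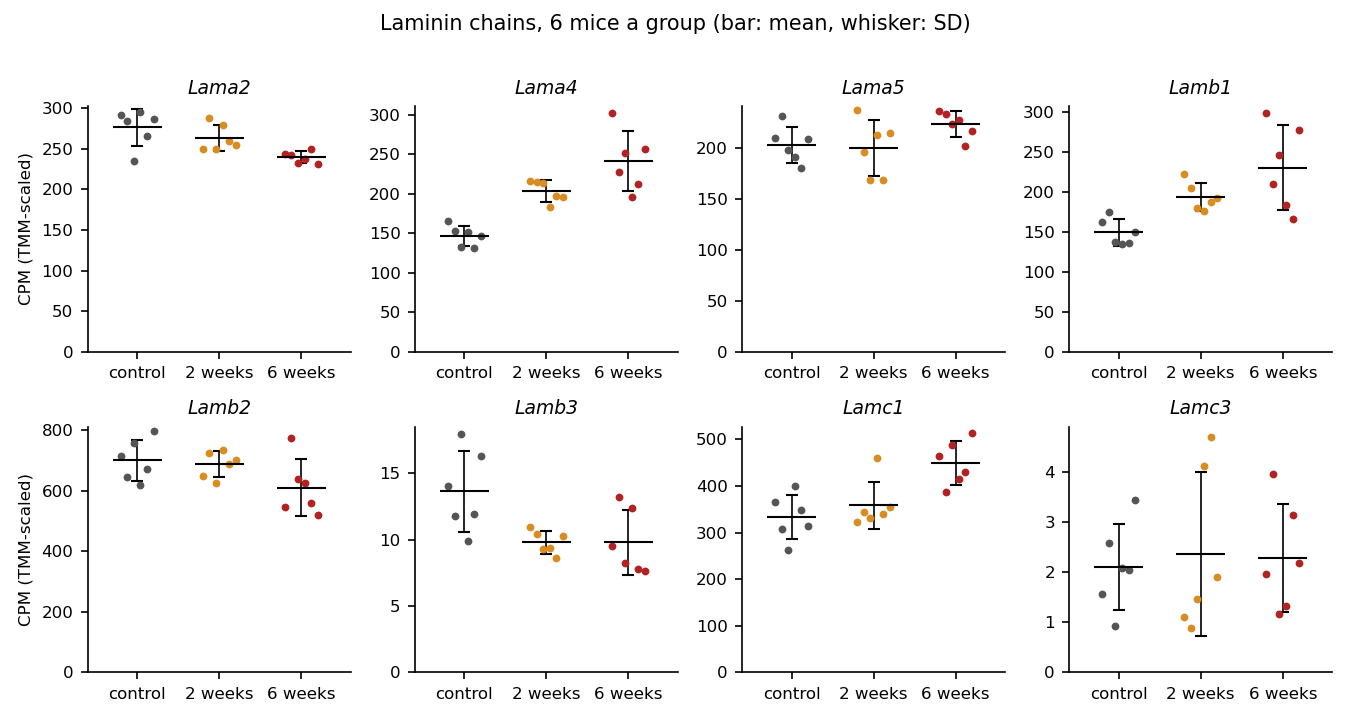
CPM of 8 laminin chains in each mouse (points), with the mean (bar) and SD (whisker) of 6 mice a group and a linear axis from 0 in each panel. Lama4 separates both irradiated groups from controls, Lamb1 and Lamc1 rise at 6 weeks, and Lama2 moves down by a small step that turned upward under scaling by library size alone or TPM.

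Endothelial, fibroblast and mural markers, which stand for other cells that make laminins and matrix integrins, did not move as one on the TMM scale. Of 7 endothelial markers Pecam1 and Cdh5 were higher at 6 weeks and Tek and Tie1 were lower, against 13.5% and 11.5% of all genes. The 7 summed to 855 to 1046 CPM in controls and 1022 to 1373 CPM at 6 weeks (exact permutation test, two-sided, p = 0.00433, adjusted p = 0.0165). Of 5 fibroblast markers, which summed to 735 to 2019 CPM in controls and 834 to 1097 CPM at 6 weeks, Pdgfra alone was called, and it was lower, while without control mouse 4 Col1a1 was also called, as higher. None of 7 smooth muscle and pericyte markers (576 to 706 CPM summed in controls, 555 to 713 CPM at 6 weeks) was called at 6 weeks by edgeR on the TMM scale or by DESeq2, and 0 had an unadjusted p under 0.05. Scaling changed these counts. With library size alone edgeR called 5 of 7 endothelial markers higher and 1 lower, and 1 of 7 mural markers higher. By limma on the log2(TPM + 1) scale 5 endothelial markers were higher and 1 lower, and 3 mural markers were higher. Fibroblast markers gave 0 higher and 1 lower, and 1 higher and 1 lower. These scales move the median gene by 0.24 and 0.29. The part of these cells in the laminin and integrin differences was not tested.

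Levels were compared between genes only in TPM, which accounts for transcript length. In controls the highest of the 37 genes were Lamb2, at a median of 114 TPM (97.5 to 135), and Itgb1, at 104 TPM (95.4 to 154), whose ranges overlapped. The next, Lama2, Itga7, Itgb5, Lamc1 and Itga6, formed a second tier with medians of 38.2 to 48.9 TPM and overlapping ranges. Lama4 and Lamb1 followed at 26.5 and 24.4 TPM, also with overlapping ranges. The most abundant leukocyte integrins, Itgb2 and Itgam, had medians of only 2.47 and 2.35 TPM in controls and 7.89 and 6.68 TPM at 6 weeks, so that the largest fold changes belonged to subunits of low level.

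Shares of the summed TPM within a chain class do not depend on the scaling between mice. Among the laminin alpha chains, Lama2 held 49.3 to 56% in controls (median 52.6%), 43.3 to 49.1% at 2 weeks (median 47.6%) and 37.9 to 47.7% at 6 weeks (median 41.3%). Lama4 held 27.2 to 32.1% in controls (median 29.3%), 34.6 to 40.4% at 2 weeks (median 37.1%) and 36.3 to 45.8% at 6 weeks (median 41.5%). For both chains neither irradiated group overlapped with controls, and at 6 weeks the 2 medians were nearly equal. Lama5 held 15.5 to 18.3% in controls and 14.9 to 18.9% at 6 weeks. Among the beta chains Lamb1 held a median of 17.4% in controls (15.9 to 22%) and 26.2% at 6 weeks (22.8 to 36.1%), and Lamb2 a median of 80.6% (76 to 81.3%) and 72.1% (62.3 to 75.3%), again without overlap. Lamc1 made up 88.2% or more of the gamma chains in every mouse. These shares are a description and were not tested.

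**Figure D5:**
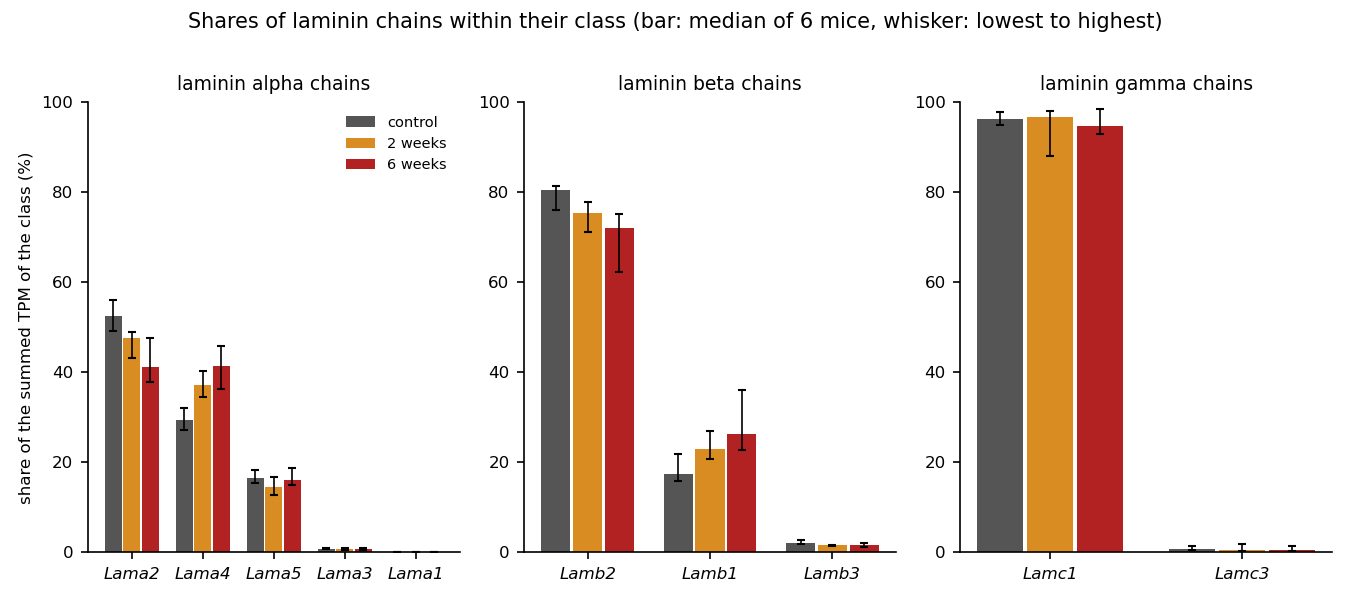
Shares of laminin chains in the summed TPM of their class, in percent, as the median (bar) and the lowest to highest value (whisker) of 6 mice a group. The share of Lama4 rises from a median of 29.3% in controls to 41.5% at 6 weeks as that of Lama2 falls from 52.6% to 41.3%, and Lamb1 gains on Lamb2.

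Between 2 and 6 weeks, 2 of the 36 genes changed further, Itgax and Itgb3, both upward, against 3.31% of all genes that were higher. None was lower, against 2.01% of all genes, DESeq2 called none lower either, and 12 of 36 had an unadjusted p under 0.05, against 21.3%. Itgax differed by 1.68 ± 0.45 on the log2 scale (adjusted p = 0.0382) and Itgb3 by 0.84 ± 0.22 (adjusted p = 0.0323). Both adjusted p values lay near 0.05, and leaving out any of 8 mice for Itgax, or any of 7 for Itgb3, lost the call. Without 6-week mouse 6 the difference was 1.12 for Itgax (adjusted p = 0.0944) and 0.66 for Itgb3 (adjusted p = 0.0802). The Itgax call was also lost without 2-week mouse 1, 2, 4, 5 or 6 or 6-week mouse 1 or 5, and the Itgb3 call without 2-week mouse 1, 2, 4 or 6 or 6-week mouse 1 or 3. Other leukocyte integrins lay just past the threshold, such as Itgae at 1.22 ± 0.36 (adjusted p = 0.0547), Itgb2 at 0.69 ± 0.21 (adjusted p = 0.06) and Itgam at 0.61 ± 0.18 (adjusted p = 0.0604), and without control mouse 4 a total of 5 genes passed. For the 7 leukocyte integrins the median of this difference was 0.74, beside -0.00075 over all genes.

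Genes that work with integrins and laminins were followed as 3 lists. Of 29 tested adaptors and activators, which link integrin tails to actin or switch integrins on, 4 were higher at 2 weeks, against 3.09% of all genes. At 6 weeks 13 were higher, against 13.5%, and 3 were lower, about the share over all genes (11.5%), with a median log2 fold change of 0.16. With control mouse 4 left out, 5 were higher at 2 weeks, and 13 were higher and 3 lower at 6 weeks. These counts depended on the scaling. With library size alone 10 were higher at 2 weeks, and 19 higher and 1 lower at 6 weeks. By limma on the log2(TPM + 1) scale 15 were higher at 2 weeks, and 23 higher and 1 lower at 6 weeks. Both scales also move the median gene, at 6 weeks by 0.24 and 0.29. Actn4, an actin crosslinker, rose from 94.8 to 110 CPM in controls to 161 to 237 CPM at 6 weeks (0.98 ± 0.08, adjusted p = 2.03e-07), and Fermt3, kindlin-3 of blood cells, from 3.25 to 6.38 CPM to 7.63 to 12.4 CPM (1.20 ± 0.18, adjusted p = 0.000115). Tln1, talin-1, which activates integrins through the beta tail, had a small but tight rise of 0.28 ± 0.04 (adjusted p = 0.000228). Itgb1bp2, melusin, a beta1-binding protein of muscle, fell by 0.68 on the log2 scale (SE 0.11, adjusted p = 0.000173), with 97.1 to 151 CPM in controls and 58.3 to 92.8 CPM at 6 weeks.

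Of 26 other basement membrane and laminin receptor genes, 3 were higher and 1 lower at 2 weeks, against 3.09% and 1.93% of all genes, and 9 were higher and 4 lower at 6 weeks, against 13.5% and 11.5%. On the TMM scale the lower counts lay near the shares over all genes, and the median log2 fold change at 6 weeks, -0.01, lay near that of all genes, -0.02. Without control mouse 4, 4 were higher and 2 lower at 2 weeks, and 8 were higher and 3 lower at 6 weeks. With library size alone 10 were higher and 1 lower at 6 weeks, and on the log2(TPM + 1) scale 13 and 0. The type IV collagen genes Col4a1 and Col4a2 had larger log2 fold changes at 6 weeks than any laminin chain, and the other type IV collagen genes of the list are not described here. Col4a1 rose at 6 weeks by 1.36 ± 0.15 (adjusted p = 7.4e-06) and Col4a2 by 1.31 ± 0.13 (adjusted p = 2.75e-06). Nid2, nidogen-2, which bridges laminin and type IV collagen, rose by 0.95 ± 0.16 at 2 weeks (adjusted p = 0.00213) and by 1.49 ± 0.16 at 6 weeks (adjusted p = 3.43e-06). Sparc, a collagen-binding matrix protein, rose by 1.25 ± 0.15 at 6 weeks (adjusted p = 1.01e-05). No direct test compared these genes with the laminins.

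Of 23 tested integrin ligands other than laminins, 3 were higher at 2 weeks, against 3.09% of all genes, and 8 were higher and 1 lower at 6 weeks, against 13.5% and 11.5%, with a median log2 fold change of 0.26. These counts turned on control mouse 4, without which 7 were higher at 2 weeks and 13 were higher and 1 lower at 6 weeks. They also turned on the scaling: 11 were higher and 0 lower at 6 weeks with library size alone, and 13 and 0 on the log2(TPM + 1) scale. Icam1, the endothelial ligand of the beta2 integrins, was at 7.4 to 14.9 CPM in controls, 16.7 to 23.5 CPM at 2 weeks and 27.4 to 33 CPM at 6 weeks, so that the 3 groups did not overlap, and its log2 fold change was 0.70 ± 0.13 at 2 weeks (adjusted p = 0.0044) and 1.17 ± 0.13 at 6 weeks (adjusted p = 4.51e-06). Icam2, its constitutive relative, rose by 0.74 ± 0.11 at 6 weeks (adjusted p = 0.000106). Fn1, fibronectin, the ligand of alpha5 beta1, varied from 85.4 to 379 CPM in controls and from 333 to 831 CPM at 6 weeks (1.54 ± 0.27, adjusted p = 0.000478). Adam15, a membrane protease that can bind integrins, rose by 0.93 ± 0.10 (adjusted p = 4.14e-06).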

How the data were processed

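The authors sequenced heart RNA of each of 18 CD-1 mice. Per the labels and methods, STAR alignments to GRCm38 were passed to Salmon, and transcript estimates were collapsed to genes by tximport. The submitters' processing notes name CASAVA 1.8 and Salmon 1.0. The deposited estimated counts were not normalized between mice and sum to 11522987 to 15501019 per mouse, so 3 counts are 0.194 to 0.26 CPM by library size alone. The deposited TPM values, made by the authors in the same step, correct each mouse's values for its depth and for the length of each transcript. The floor of 3 counts covers counting error only. Nothing in the labels says that the mice of a group share a culture or cage, and each mouse was 1 replicate. No pair of libraries held identical counts.

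Rounding to whole counts preceded all fits, which ran in R 4.3.3. The filter kept genes that reached 0.23 CPM in 6 or more mice, TMM set the scale, and 1 edgeR 4.0.16 quasi-likelihood model (legacy = FALSE) held the 3 groups. P values were two-sided and Benjamini-Hochberg adjusted over 15054 genes. CPM values are TMM-scaled, SE is the absolute log2 fold change over the square root of F, 95% intervals use it with the t distribution on the residual degrees of freedom of the 18 mice, and a group overlap compares the 6 lowest and highest values. Single values per mouse were compared by exact permutation tests (smallest p 0.00217). Coordinates are those of the GENCODE annotation of GRCm38, and start-site windows come from RefSeq on GRCm38.p6. For 23 of 26 windows, the bases shortly after the start site were found in the first part of a GENCODE transcript of the gene. Members were found by symbol. Genes called in any comparison are named with full values, the others with their log2 fold changes, and of each list of neighbouring genes the 4 with the smallest adjusted p at 6 weeks are named. The members, lists and tests were chosen with earlier results of these data known. The code was tested on simulated counts for 15054 genes in the comparison of controls with 6 weeks. It found 69% of log2 changes of 0.58 and 94% of changes of 1, with 9 unchanged genes called. Changed genes were drawn only from those above a minimum mean count, which Itgax, Itgae and Itgad (control medians 4.5, 3 and 2.5) did not reach. Detection at such low counts was therefore not tested.

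Alternatives were DESeq2 1.42.0, limma 3.58.1 (voom, voom with weights, log2(TPM + 1) and log2(TPM + 0.1)), an earlier edgeR model, other scalings and filters, a block for the replicate number, a covariate for Y-linked expression, only the compared groups, and leaving out each mouse. Protein, histology and electrophysiology were not analysed here, and the single values of 1 member and 1 marker gene are not reported here.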

Additional observations from a re-analysis of the deposited data

Results flagged for a closer look

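In 8 of 108 groups of 6 mice (7.41%) 1 mouse lay apart from the other 5 by Dixon's criterion (gap over range above 0.625), where chance marks about 1 group in 20. The marked mice belonged to all 3 groups, and none was marked more than once. In controls these were mouse 1 for Itgae (0.976 CPM, the next at 0.278), mouse 4 for Itgb1 (428 CPM, the next at 332) and mouse 5 for Itga8 (21.5 CPM, the next at 13.3). At 2 weeks they were mouse 4 for Lamc1 (459 CPM, the next at 356), mouse 3 for Itga4 (11.5 CPM, the next at 8.73) and mouse 2 for Itgad (0.401 CPM, the next at 0.147). At 6 weeks they were mouse 6 for Itgax (13.3 CPM, the next at 5.47) and, at the low end, mouse 4 for Itgb4 (2.82 CPM, the next at 5.15).

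The effects at 2 and 6 weeks differed by a test of the difference itself for Itgax (1.68 on the log2 scale) and Itgb3 (0.84), in edgeR's quasi-likelihood test. Both differences fell short of the threshold when 6-week mouse 6 was left out.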

How the results depend on the processing

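Of the 15 genes higher at 6 weeks, 14 kept their call in all 14 alternative models, scalings, filters and units (Itga6 fell short on both TPM scales, adjusted p = 0.059 and 0.0583), and 14 kept it without any single mouse (Itgal did not). Lama2 reversed from -0.21 at 6 weeks to 0.055 with library size only, 0.22 with log2(TPM + 1) and 0.22 with log2(TPM + 0.1), and these scalings move the median gene by 0.24, 0.29 and 0.37. The counts at 2 weeks and between 2 and 6 weeks were less stable, since many adjusted p values lay near 0.05. Causes were not tested. Low-level genes limit precision: 3 counts are 0.194 to 0.26 CPM by library size alone, and Itgad and Lama1 never exceeded 7 counts.

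Counts at 2 weeks. Genes higher numbered 2 and became 7 with DESeq2 (1 lower), 8 with library size only, 9 and 10 with log2(TPM + 1) and log2(TPM + 0.1), 4 with only the 2 groups compared and 0 past an absolute log2 fold change of 1. Leukocyte integrins higher (1) became 3 with DESeq2, 2 with the earlier edgeR model, 3 with library size only, 3 and 4 on the TPM scales and 0 past the fold threshold. Matrix-binding integrins higher (0) became 2, 3, 4 and 4 with DESeq2, library size only and the TPM scales, and 1 with only 2 groups. Laminins higher (1) became 2 with DESeq2, library size only, both TPM scales, the replicate block and only 2 groups, and 0 past the fold threshold. Laminins lower (0) became 1 with DESeq2.

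Counts at 6 weeks. Genes higher (15) became 23 with log2(TPM + 1) and 8 past the fold threshold, matrix-binding integrins higher (6) became 11, 11 and 3 with both TPM scales and the fold threshold, and laminins higher (3) became 6, 5 and 0. The genes gained with log2(TPM + 1) were Itga3, Itga7, Itga9, Itgav, Itgb4, Itgb5, Lama3 and Lama5, besides the reversed Lama2. With log2(TPM + 0.1) the same genes were gained except Lama3. Library size only added Itga3, Itgb4, Itgb5 and Lama5, and DESeq2 and the Y-linked covariate each added Itgb4. Laminins lower (2, also the total) became 0 with library size only, the TPM scales and the fold threshold, and 1 with the replicate block and with only 2 groups.

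Counts between 2 and 6 weeks. Genes higher (2) became 7 with DESeq2, voom with weights and log2(TPM + 1), 1 with the earlier edgeR model and past the fold threshold, 11 with library size only, 0 with the replicate block, 5 with the Y-linked covariate and 4 with only 2 groups. Leukocyte integrins higher (1) became 3 with DESeq2, voom with weights, log2(TPM + 1) and only 2 groups, 2 with voom, 0 with the earlier edgeR model and the replicate block, 5 with library size only and 4 with the covariate. Matrix-binding integrins higher (1) became 3 with DESeq2, voom with weights and log2(TPM + 1), 0 with voom, the replicate block and the fold threshold, and 4 with library size only. Laminins higher (0) became 1 with DESeq2, voom with weights and log2(TPM + 1), and 2 with library size only.

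Leaving out 1 mouse at a time, genes higher at 2 weeks numbered 1 to 4 (4 without control mouse 4 or 6-week mouse 5), genes lower 0 to 1, leukocyte integrins 0 to 2, matrix-binding integrins 0 to 1, laminins higher 1 to 2 and laminins lower 0 to 1. At 6 weeks genes higher numbered 14 to 16 and genes and laminins lower 1 to 3. Between 2 and 6 weeks genes higher numbered 0 to 5 (0 without 2-week mouse 1, 2 or 6 or 6-week mouse 1 or 6), leukocyte integrins 0 to 3, matrix-binding integrins 0 to 3 and laminins 0 to 1.

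Whether the replicate numbers pair the mice by litter is not stated, and the correlations here cannot decide it. Of 18 same-numbered pairs, 2 had a correlation of deviations over 0.1 (range -0.0828 to 0.106), and 3 of 18 mice correlated best with a mouse of their own number. With the replicate block the calls lost among named genes were Lamb3 at 6 weeks and Itgax and Itgb3 between 2 and 6 weeks, and Lamb1 was gained at 2 weeks.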

Other observations

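Within the integrin classes the shares of TPM, which do not depend on scaling between mice, were as follows. Itgb1 held 64.3 to 70.9% of the beta subunit TPM in controls (median 67.7%) and 66.6 to 73.3% at 6 weeks (median 70.2%). The share of Itgb5 had a median of 23% in controls and 19.9% at 6 weeks, and that of Itgb6 5.22% and 3.92%, with overlapping ranges for both. Among the alpha subunits, Itga7 held a median of 31.1% in controls and 27% at 6 weeks, Itga6 25.9% and 22.9%, and Itga9 10.6% and 11%. The beta2 share was 0.85 to 2.42% in controls and 2.78 to 4.28% at 6 weeks, without overlap. These are descriptions, and no test was made.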
